A study of Drosophila melanogaster with 8 samples.

Results

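The last 3 complexes of oxidative phosphorylation were examined in the heads of Drosophila melanogaster females: complex III (cytochrome bc1), complex IV (cytochrome c oxidase) and complex V (ATP synthase). Members were the genes whose single symbol in the platform annotation begins with ATPsyn, COX or UQCR, or is RFeSP, Cyt-c1, Cyt-c-p, Cyt-c-d or ox. The rule used names only and found 37 genes on 43 probe sets, out of 11982 genes with a probe set of a single symbol. Of the 37 genes, 9 belong to complex III, 14 to complex IV and 14 to complex V. No probe set carried Cyt-c-p or Cyt-c-d as its single symbol, so the mobile carrier cytochrome c was not analysed here, and neither were UQCR-C1 and UQCR-C2. Where a gene had several probe sets, the one of highest mean across all 8 arrays stood for it.

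In the study, Canton S wild-type females were held from within 8 h of eclosion for 12 days at 12.5 °C with 14 h of light and 10 h of dark, a day length at which both kinds of fly occur, and dissection of the ovaries then separated diapause from non-diapause flies. Strain, age, temperature and light were thus shared by the groups, which differ in the ovary state by which they were sorted. Total RNA of heads was hybridised to 4 arrays per group (diapause 1 to 4 and non-diapause 1 to 4), each a 1-colour Affymetrix Drosophila Genome 2.0 array. The sources used here do not give the number of flies per array, nor do they state that replicate arrays derive from separate cultures. The p-values therefore reflect array-to-array spread alone, part or all of which may be technical.

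Complex III takes electrons from ubiquinol and passes them to cytochrome c, complex IV passes them on to oxygen, and both move protons out of the mitochondrial matrix. Complex V lets the protons flow back through a ring of c subunits in the membrane, whose rotation drives ATP synthesis in the F1 head, while a peripheral stalk keeps the head from turning. In flies, as in other animals, most subunits are encoded in the nucleus and a few core subunits in the mitochondrial genome, and many Drosophila genes of this kind have a duplicate that is expressed mainly in testis. Photoreceptors, neurons and muscle of the head depend on this pathway for ATP.

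Values are on the deposited log2 scale and are followed by the SD of the 4 arrays, and a difference below 0 means a lower level in diapause. A difference of -0.13 on this scale is a level about 8.6% lower. Over the 18769 probe sets that were tested, values ran from a floor of 2.16 to 15.7, and Pearson's r between arrays lay between 0.976 and 0.998. The number of arrays limits the precision. Defining markers of the head were high: the eye genes Arr1, Arr2 and trp had means from 13.82 to 15.04, whereas all 7 listed testis and accessory gland genes stayed at the floor. On non-diapause 3 the summed signal of 4 digestive tract genes (log2 of the sum of linear values) was 4.40, against 13.81 to 15.94 on the other 7 arrays, so the counts of members are also given without that array.

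The 37 genes fell into 2 clearly separated classes. A mean of at least 6 was reached by 25 genes, 7 of complex III, 8 of complex IV and 10 of complex V, with means from 7.68 to 14.56, and 23 of the 25 had a mean of at least 12. The other 12 genes had means of 3.94 or less. All 12 carry the suffix L, by which duplicates are named. COX4L, COX5BL, COX6AL, COX6CL, COX7AL and ATPsynGL were within 0.01 of the floor on every array. The remaining 6, UQCR-11L, UQCR-14L, COX6AL2, ATPsynCF6L, ATPsynbetaL and ATPsynepsilonL, lay above the floor but stayed dim. Among these, ATPsynepsilonL was 3.96 ± 0.14 on diapause and 3.92 ± 0.15 on non-diapause arrays, and ATPsynbetaL read 2.19 on all 8 arrays. COX5BL overlaps Trmt6, the gene that follows COX5B on the chromosome. COX5B was 13.08 ± 0.02 in diapause and 13.13 ± 0.06 in non-diapause, while COX5BL was at the floor. The only member with the suffix L among the bright genes was COX7AL2, measured by a probe set of the shared type (ending _s_at), whose probes can match several transcripts. Its signal had a mean of 12.2 over the 8 arrays, and whether other transcripts contribute to it was not tested.

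The comparison of diapause with non-diapause heads asked which of these transcripts differ when light, temperature and age are shared. Differences were small and mostly below 0: 20 of the 25 bright members (80%) had a lower mean in diapause, with a median of -0.03, which is 2.36% lower. Among the 7593 probe sets of that brightness, 48.7% were below 0 and the median was 0.00. A mean of at least 12 was reached by 23 of the 25 members. Among the 706 probe sets of that higher level, 55.1% were below 0 and the median was -0.01. After a second quantile normalization 19 of 25 bright members were below 0, and 22 of 25 with arrays centred on their medians, beside 58.1% and 58.4% of bright probe sets. The members' median was -0.02 after the second quantile normalization, where that of all bright probe sets was also -0.02, and -0.06 against -0.03 after centring. With array weights 17 of 25 members were below 0 (median -0.01, against 0.01 for all bright probe sets). Counting the 31 members above the floor, 23 (74.2%) were below 0, with ATPsynbetaL less than 0.001 below it, against 52% of all probe sets above the floor. In limma with Benjamini-Hochberg adjustment over all probe sets, 0 members and 0% of all probe sets had an adjusted p under 0.05. At an unadjusted p under 0.05, 2 members were lower and 0 higher. The background was 2.09% lower and 0.906% higher among all probe sets tested, and 4.7% lower and 1.8% higher among those with a mean of at least 6, so that 2 of 25 bright members (8%) stood near the share among bright probe sets. The groups did not overlap for 1 of the 25, in the lower direction (4%), where 3.17% of bright probe sets were separated as lower and 1.15% as higher.

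**Figure D1:**
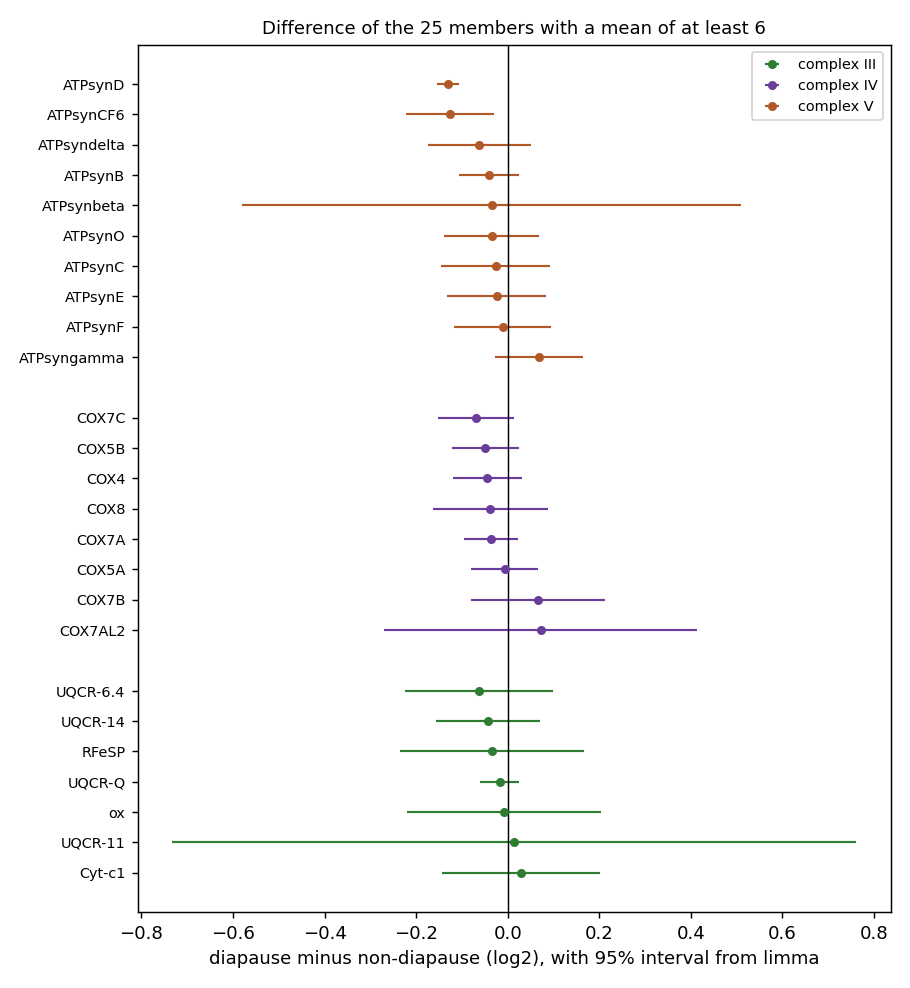
Difference between diapause and non-diapause heads (log2, x axis) for the 25 members with a mean of at least 6, grouped by complex, with the 95% interval from limma as horizontal lines. The intervals of ATPsynD and ATPsynCF6 lie wholly below 0 and those of the other 23 include 0.

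Intervals were narrow for most members. The 95% interval reached a median of 0.11 to either side, and for 22 of the 25 it lay wholly within 0.25 of 0 (15.9% lower or 18.9% higher). The exceptions were UQCR-11, COX7AL2 and ATPsynbeta, which varied more between arrays. An interval that includes 0 does not show that the groups are equal.

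In complex V, 9 of 10 bright members had a lower mean in diapause (median -0.03). Without non-diapause 3 the count was 6 of 10 (median -0.04), and after a second quantile normalization 8 of 10 (median -0.02). ATPsynD, which encodes stalk subunit d, read 12.56, 12.54, 12.58 and 12.56 on diapause arrays 1 to 4 and 12.69, 12.71, 12.67 and 12.68 on non-diapause arrays 1 to 4. The groups did not overlap, with a gap of 0.10 between the highest diapause and the lowest non-diapause array. The means were 12.56 ± 0.02 and 12.69 ± 0.01, a difference of -0.13 with a 95% interval of -0.15 to -0.11, or 8.64% lower (limma adjusted p = 0.0743). Its p was the smallest of all 18769 probe sets, and it rests on the very small spread of this probe set: when probe sets below a mean of 4 were left out, which changes the moderation of the variance, the same difference had an adjusted p of 0.890 in limma. In the other direction, the limma adjusted p was 0.0460 after a second quantile normalization and 0.0226 with array weights. With arrays centred on their medians it was 0.0232, although the unadjusted limma p rose from 7.86e-06 to 2.63e-05. Centring brought 7276 probe sets under a p of 0.01, against 144 as deposited, and so many small p-values lower the adjusted p of the others. The probe set is of the shared type.

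ATPsynCF6, which encodes coupling factor 6 of the same stalk, read 12.80, 12.70, 12.68 and 12.71 on the diapause arrays and 12.78, 12.89, 12.82 and 12.91 on the non-diapause arrays. The groups overlapped through diapause 1 and non-diapause 1 only. Its difference was -0.13 (95% interval -0.22 to -0.03, limma adjusted p = 1), or 8.41% lower. Both ATPsynD and ATPsynCF6 thus belong to the stalk, a grouping made after their values were seen. ATPsynB, which encodes subunit b, was 13.60 ± 0.04 and 13.64 ± 0.04 (-0.04), and ATPsynO, which encodes the oligomycin sensitivity-conferring protein at the top of the stalk, was 13.57 ± 0.04 and 13.61 ± 0.08 (-0.03). Both intervals included 0, and these differences lay within the range of the complex V members outside the stalk.

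The other 6 bright members of complex V encode parts of the F1 head, the rotor and the membrane sector. Their differences ran from -0.06 to 0.07, and all 6 intervals included 0. ATPsyngamma, which encodes the central shaft, had the largest difference above 0. It read 13.87, 13.88, 13.79 and 13.81 on the diapause arrays and 13.68, 13.81, 13.76 and 13.82 on the non-diapause arrays, so that the groups overlapped. Its means were 13.84 ± 0.05 and 13.77 ± 0.07 (0.07, 95% interval -0.03 to 0.17, limma adjusted p = 1). ATPsyndelta, a subunit of the central stalk, differed by -0.06 (12.85 ± 0.06 and 12.91 ± 0.08). ATPsynC, the c subunit of the rotor ring, differed by -0.03, and the membrane subunits ATPsynE and ATPsynF by -0.02 and -0.01. The probe sets of ATPsynC, ATPsynE and ATPsynF are also of the shared type. The catalytic subunit gene ATPsynbeta is considered with its probe sets below.

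**Figure D2:**
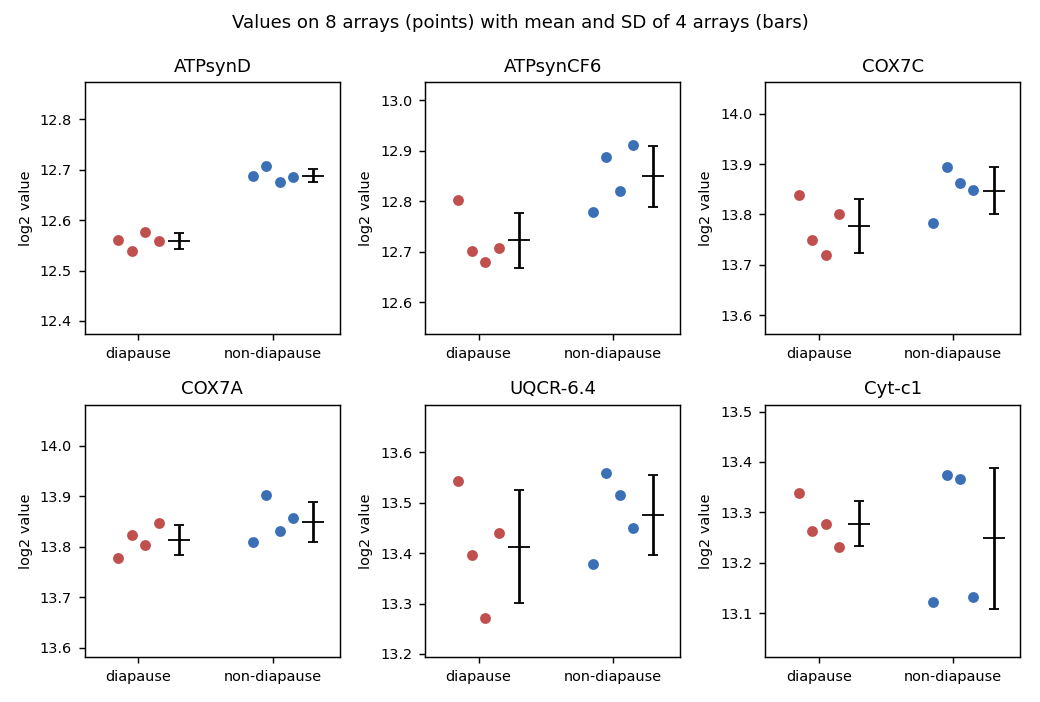
Log2 values (y axis, each panel spanning 0.5) of 6 members on the diapause and non-diapause arrays, with the group mean and SD of 4 arrays beside the points. ATPsynD separates the groups, ATPsynCF6 nearly so, and the other 4 overlap.

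In complex IV, 6 of 8 bright members had a lower mean in diapause (median -0.04), and all 8 intervals included 0. The count was 5 of 8 (median -0.01) both without non-diapause 3 and after a second quantile normalization. The smallest p belonged to COX7C, a small subunit of the oxidase. It read 13.84, 13.75, 13.72 and 13.80 on the diapause arrays and 13.78, 13.89, 13.86 and 13.85 on the non-diapause arrays, with non-diapause 1 inside the diapause range. The means were 13.78 ± 0.05 and 13.85 ± 0.05 (-0.07, 95% interval -0.15 to 0.01, limma adjusted p = 1). COX5B, a subunit on the matrix side, read 13.10, 13.09, 13.07 and 13.05 on the diapause arrays and 13.09, 13.20, 13.15 and 13.07 on the non-diapause arrays. The groups overlapped, and the difference was -0.05 (95% interval -0.12 to 0.02, limma adjusted p = 1). COX7A read 13.78, 13.82, 13.80 and 13.85 against 13.81, 13.90, 13.83 and 13.86. Its arrays were interleaved, with a difference of -0.04 (95% interval -0.10 to 0.02, limma adjusted p = 1).

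COX4 (13.47 ± 0.02 and 13.52 ± 0.06), COX8 (13.50 ± 0.07 and 13.54 ± 0.08) and COX5A (13.61 ± 0.03 and 13.62 ± 0.05) differed by -0.04, -0.04 and -0.01. Above 0 were COX7B at 0.07 and COX7AL2 at 0.07. COX7AL2 read 12.35, 12.23, 12.25 and 12.05 on the diapause arrays and 11.80, 12.42, 12.26 and 12.11 on the non-diapause arrays. Both its lowest and its highest value were in the non-diapause group, on non-diapause 1 and non-diapause 2, and the 95% interval of its difference was -0.27 to 0.41 (limma adjusted p = 1). Without non-diapause 1 the sign turned, to -0.04.

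In complex III, 5 of 7 bright members had a lower mean in diapause (median -0.02), and all 7 intervals included 0. Without non-diapause 3 the count was 4 of 7 and the median 0.00, and after a second quantile normalization they were 6 of 7 and -0.03. Cyt-c1, the cytochrome that hands electrons to cytochrome c, read 13.34, 13.26, 13.28 and 13.23 on the diapause arrays and 13.12, 13.37, 13.37 and 13.13 on the non-diapause arrays. The non-diapause arrays enclosed the diapause range, and the difference was 0.03 (95% interval -0.14 to 0.20, limma adjusted p = 1). Its sign turned without non-diapause 1 or without non-diapause 4. RFeSP, the Rieske iron-sulfur protein, was 12.63 ± 0.12 on diapause and 12.67 ± 0.12 on non-diapause arrays (-0.03), and a second probe set of it was at the floor. Among the small supernumerary subunits, UQCR-6.4 read 13.54, 13.40, 13.27 and 13.44 against 13.38, 13.56, 13.52 and 13.45, and the ranges overlapped widely (-0.06, 95% interval -0.22 to 0.10, limma adjusted p = 1).

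UQCR-Q was the steadiest bright member of complex III. It lay between 11.15 and 11.16 on 7 arrays and at 11.23 on non-diapause 3, so that its difference of -0.02 (95% interval -0.06 to 0.03, limma adjusted p = 1) came from that array and was 0.00 without it. UQCR-14 (-0.04) and ox (-0.01) differed little. UQCR-11, another small subunit, was the dimmest bright member and the most variable, at 7.52, 8.23, 7.16 and 7.85 on the diapause arrays and 7.31, 7.34, 8.24 and 7.81 on the non-diapause arrays. Both groups covered about the same range, and the interval of its difference of 0.01 was -0.73 to 0.76. Its dim duplicate UQCR-11L stood at 2.58 to 2.90 on the diapause arrays and at 2.79, 2.78, 2.81 and 4.04 on the non-diapause arrays. Only non-diapause 4 stood apart, and the difference of -0.33 (95% interval -1.08 to 0.43, limma adjusted p = 1) was -0.01 without that array.

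In 3 genes there was a pair of probe sets above the floor, and in each of them the pair disagreed in sign. For ATPsynbeta, the catalytic subunit, the brighter probe set read 12.96, 12.95, 13.86 and 13.20 on the diapause arrays and 13.44, 13.37, 13.05 and 13.24 on the non-diapause arrays, and the other 13.20, 13.15, 13.35 and 13.12 against 13.13, 13.12, 13.22 and 13.07. Diapause 3 was the highest array on both. The differences were -0.03 (95% interval -0.58 to 0.51) and 0.07 (95% interval -0.08 to 0.21). For ATPsyngamma the brighter probe set gave 0.07 and the other, of the shared type, -0.04. For COX7B they gave 0.07 (95% interval -0.08 to 0.21) and -0.08 (95% interval -0.23 to 0.08), and a further probe set of COX7B was at the floor, as was one of COX7C. None of these 6 intervals excluded 0, and the direction of these genes is therefore not settled by the arrays.

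**Figure D3:**
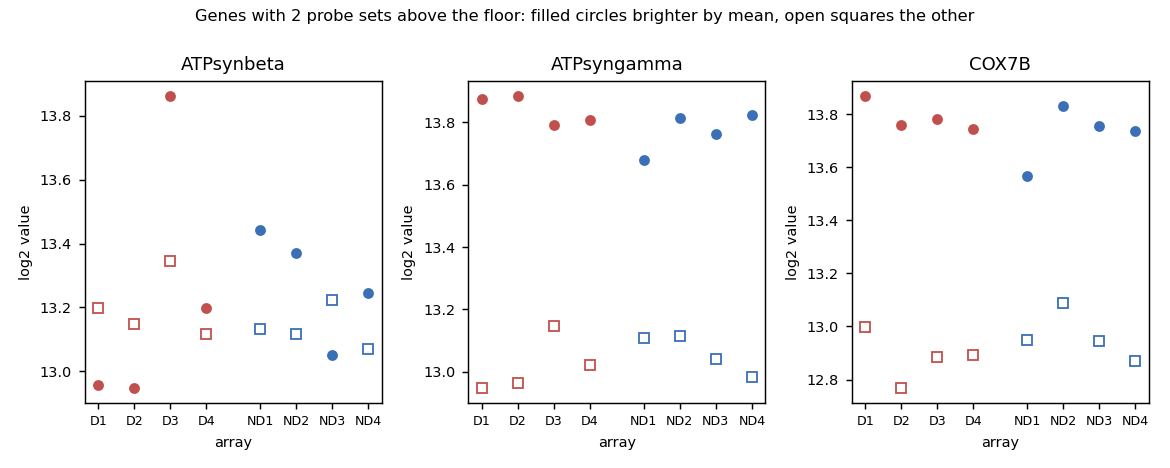
Log2 values (y axis) on the diapause (D, red) and non-diapause (ND, blue) arrays for the 3 genes with 2 probe sets above the floor, the brighter by mean as filled circles and the other as open squares. Diapause 3 is high for ATPsynbeta on both probe sets, at 13.86 and 13.35.

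Across the arrays the members of the 3 complexes often had their extremes on the same arrays. On non-diapause 2, 12 of the 25 bright members had their highest value, and on non-diapause 3 a further 8, whereas these arrays held the highest value of 11.6% and 17.5% of all bright probe sets. On non-diapause 1, 9 of the 25 had their lowest value, against 16.9% of all bright probe sets. The mean over the 8 bright members of complex IV was 13.45, 13.40, 13.39 and 13.39 on the diapause arrays and 13.31, 13.50, 13.47 and 13.40 on the non-diapause arrays, and the non-diapause arrays lay on both sides of the diapause range. For complex III (7 members) it was 12.14, 12.15, 12.01 and 12.13 against 12.00, 12.15, 12.25 and 12.10. For complex V (10 members) it was 13.48, 13.45, 13.55 and 13.47 against 13.51, 13.58, 13.52 and 13.52, with diapause 3 as the only diapause array above the lowest non-diapause array. A variable member weighs on such plain means. ATPsynbeta read 13.86 on diapause 3, against 12.95 to 13.20 on the other diapause arrays. In complex III, UQCR-11 read 7.16 on diapause 3 and 8.24 on non-diapause 3. The means without these members are not given here. The difference of the complex means was -0.02 for complex III, -0.01 for complex IV and -0.04 for complex V. In the same order, the SD of the complex means was 0.07, 0.03 and 0.04 over the diapause arrays. Over the non-diapause arrays it was 0.10, 0.08 and 0.03. The spread within either group was thus larger than the difference for complexes III and IV. For complex V the difference was about the size of the SD in the diapause group. Whether the complexes differ from each other was not tested.

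**Figure D4:**
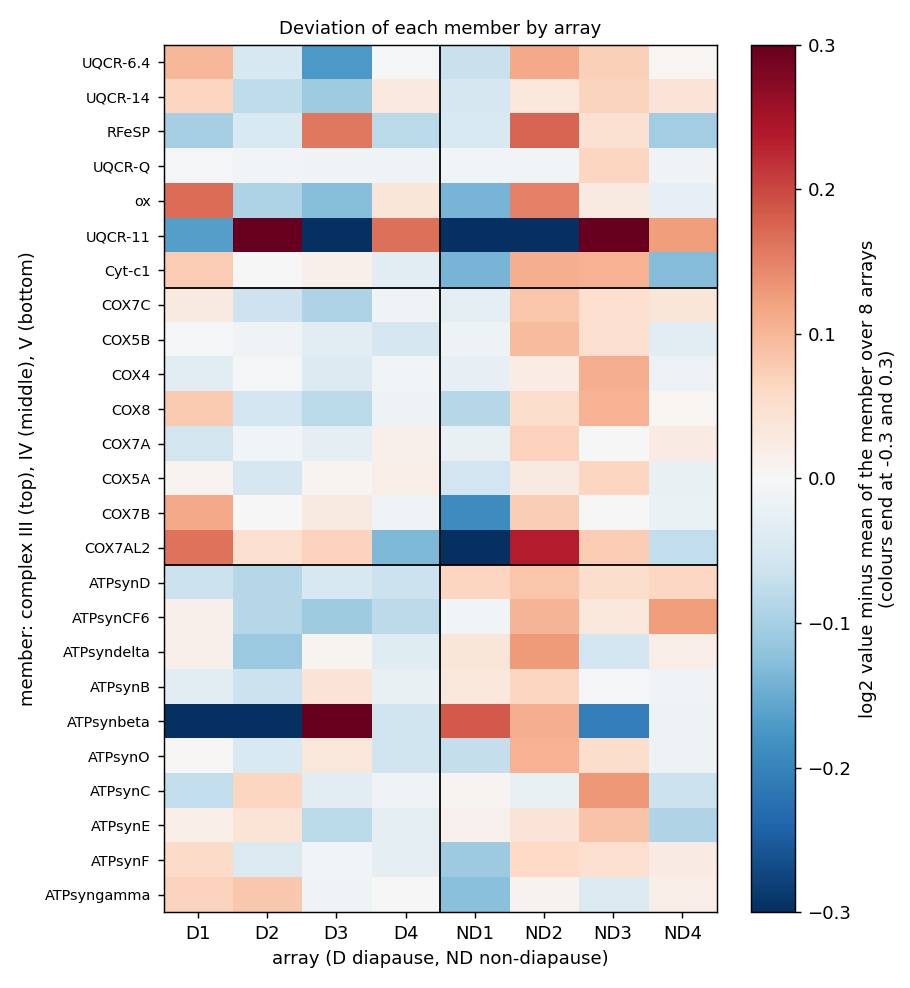
Deviation of each of the 25 bright members (rows, by complex) from its own mean over 8 arrays (log2, colour), by array (columns, D diapause and ND non-diapause). ATPsynD alone is below its mean on all 4 diapause arrays and above it on all 4 non-diapause arrays, and non-diapause 2 holds the highest value of 12 members.

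The count of bright members below 0 varied with the arrays left out, and so did the background. Leaving out any 1 array gave 15 to 22 of 25. Without non-diapause 3, 15 of the 25 were below 0 (median -0.02), beside 45.7% of all bright probe sets (median 0.02). Without non-diapause 1 the count was 22 of 25 (median -0.06), beside 55.2% (median -0.01). Without diapause 3 and non-diapause 3 together it was 13 of 25 (median 0.00), beside 46.4% (median 0.02). The difference of ATPsynD stayed between -0.14 and -0.12 when any 1 array was left out and that of ATPsynCF6 between -0.15 and -0.11, while the limma adjusted p of ATPsynD ran from 0.147 to 0.424.

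Other genes of the pathway were taken from lists of names. Of the 28 complex I subunit genes above the floor, out of 32 with a probe set, 26 were below 0 (median -0.05), against 52% of all probe sets above the floor. At limma p under 0.05, 2 were lower and 0 higher, and 0 passed the adjusted test. The background at that p was 2.09% lower and 0.906% higher among all probe sets, and 4.7% and 1.8% among bright ones. The smallest p belonged to ND-13B (10.76 ± 0.06 on diapause and 10.86 ± 0.03 on non-diapause arrays, -0.10, limma adjusted p = 1) and ND-42 (-0.10, limma adjusted p = 1). Complex II was represented by SdhB, SdhC and SdhD, of which 2 of 3 were below 0 (median -0.02), with SdhC at -0.05, and 0 had p under 0.05. Among subunits of complexes IV and V with names outside the rule, 2 of 4 were below 0 (3 of 4 after a second quantile normalization): blw, which encodes the alpha subunit of F1, was 14.39 ± 0.06 and 14.35 ± 0.07 (0.04), and levy and cype, subunits of the oxidase, stood at -0.04 and -0.03. The epsilon subunit gene sun was dim, with 0.05. None of the 4 had p under 0.05.

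A further list held ADP/ATP and phosphate carriers and uncoupling-type carriers of the inner membrane, together with porins of the outer membrane. The uncoupling-type genes Bmcp, Ucp4A and Ucp4B were among those above the floor, with differences of 0.03, 0.03 and 0.02. Ucp4B was near the floor, at 2.18 on every array except diapause 2 (2.24), and its difference came from that array. Of 10 genes with a probe set 8 were above the floor, and 8 of 8 had a mean higher in diapause (median 0.04), against 6 of 8 after a second quantile normalization and 4 of 8 with arrays centred on their medians, and 0 had p under 0.05. The smallest p belonged to the ADP/ATP carrier gene sesB, at 15.37 ± 0.07 and 15.28 ± 0.06 (0.09, 95% interval -0.02 to 0.19, limma adjusted p = 1), followed by the phosphate carrier gene Mpcp2 (0.06). Of 10 listed genes for assembly of the complexes 3 were found, all below 0, with 1 at p under 0.05, beside 4.7% of bright probe sets lower at that p. They were CG3803 at -0.16 (95% interval -0.29 to -0.03, limma adjusted p = 1), which had the p under 0.05, Surf1 at -0.14 and Scox at -0.02. Regulators of mitochondrial transcription and genome maintenance were split, 3 of 6 below 0 (5 of 6 under either of those scalings) with 0 at p under 0.05, among them mTTF at -0.11 and TFAM at 0.15. Transcripts encoded in the mitochondrial genome had no probe set under the 6 symbols searched and were not analysed here.

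**Figure D5:**
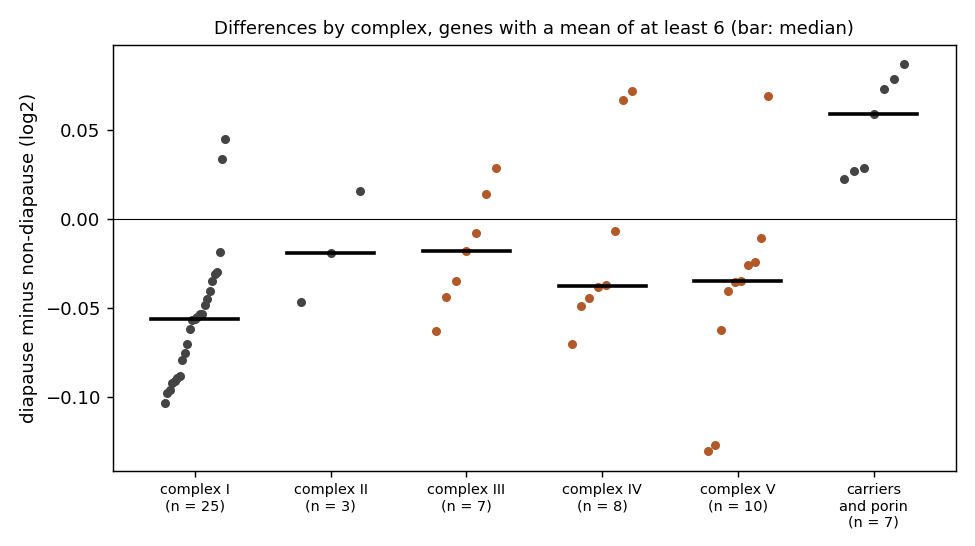
Differences between diapause and non-diapause heads (log2, y axis) of genes with a mean of at least 6, by complex and for the carriers and porins, with the median of each set as a bar. The 7 carrier and porin genes, as deposited, lie above 0, and most genes of complexes I, III, IV and V lie below 0.

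Marker genes of other tissues were summed on each array. The 6 fat body genes were Yp1, Yp2, Yp3, Lsp2, fit and apolpp. Their summed signal was 17.48 to 17.59 on the diapause arrays and 17.66 to 17.89 on the non-diapause arrays. Of these genes 6 of 6 were lower at limma p under 0.05, beside 4.7% of bright probe sets, and 0 had an adjusted p under 0.05. The study itself names the yolk protein genes Yp2 and Yp3 among its diapause genes, so the sum is not a measure of fat body amount alone. For 6 muscle genes the summed signal was 14.45 to 14.68 on the diapause and 14.19 to 14.51 on the non-diapause arrays, with 6 of 6 means higher in diapause and 0 at p under 0.05. The summed signal of 3 eye genes overlapped between groups (16.20 to 16.42 and 16.17 to 16.43), as did that of 4 neuronal genes (12.32 to 12.94 and 12.15 to 12.85). The part of these tissues in the differences of the members was not tested, and in RNA of whole heads fewer cells of a type cannot be told apart from less RNA per cell.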

How the data were processed

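Head RNA of 8 samples was measured on 8 arrays. The log2 values deposited by the authors had been made with GCRMA (background from probe sequence, quantile normalization, summary per probe set), version not given in the sources used here. They were used without further normalization or filter, apart from 183 control probe sets that were left out. Values near the floor have no order.

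Genes were named through the platform annotation, and the symbols of 37 of 37 members matched a RefSeq table of Drosophila genes (Release 6) by Entrez identifier. This table was used for names and neighbours only. Probe sets with several symbols were not assigned to a gene.

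Groups, taken from the sample titles, were compared by limma, the package named in the methods of the study, in version 3.58.1 under R 4.3.3 (functions lmFit and eBayes, 2-sided, no covariate). Benjamini-Hochberg adjustment over 18769 probe sets and the threshold of 0.05 were choices made here, whereas the study called genes at p under 0.01 with no adjustment stated. The prior had 0.327 degrees of freedom, and the variances were moderated little. In simulated arrays drawn from the levels and variances of the 18769 probe sets, 29.2% of probe sets changed by 0.5 and 63.2% of those changed by 1 passed the adjusted test. The changed probe sets were taken from those with a mean of at least 6. Their median SD was 0.18, against 0.06 for the bright members, so these rates do not describe the members. Differences of the size reported here were not simulated. Gene lists were described by counts and medians and given no test.

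The members, the gene lists and the alternatives were chosen with earlier results of these data known. Named in full were, in each complex, the 3 members above the floor with the smallest p, any other with p under 0.05, and the largest and most negative difference among members with a mean of at least 6. From each pathway list the 2 genes with the smallest p were named, while Scox, cype, sun, Bmcp, Ucp4A, Ucp4B, UQCR-11, the stalk grouping and the genes with a pair of probe sets were given in more detail after their values were seen. The alternatives tried were the replicate number as a block, exclusion of dim probe sets, a variance prior that follows the mean (limma-trend, also in its robust form), centring of arrays on their medians, quantile normalization repeated on the deposited values, array weights, averaging a gene's probe sets, and arrays left out.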

Additional observations from a re-analysis of the deposited data

Results flagged for a closer look

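Of 57 groups of 4 arrays, 6 held an array far from the other 3, with a gap to the nearest one beyond the critical value of Dixon's test. Chance alone gives about 1 in 20 groups of values that vary freely, a rate that does not apply at the floor. Among the bright members only UQCR-Q was flagged. The non-diapause 3 value of UQCR-Q was 11.23 while its group otherwise ran from 11.15 to 11.16. The non-diapause 4 value of UQCR-11L was 4.04 while its group otherwise ran from 2.78 to 2.81. The other 4 values were within 0.1 of the floor: UQCR-14L at 2.20 on diapause 1 and at 2.18 on non-diapause 1, COX6AL2 at 2.18 on non-diapause 3, and ATPsynCF6L at 2.25 on diapause 1. In each of these 4 groups the other 3 arrays were equal, so that any departure from them is flagged.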

How the results depend on the processing

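Under 18 alternatives, the differences of ATPsynD (-0.16 to -0.12), ATPsynCF6 (-0.16 to -0.11), COX7C, COX5B, COX7A, UQCR-6.4 and ATPsyngamma kept their sign. Members lower at p under 0.05 numbered 2 in the reported comparison, 1 with a replicate block, 1 with probe sets of a mean of at least 4, 1 with a mean of at least 6, 0 with limma-trend and a robust prior and 8 with centring on array medians. In the same order, 4.7%, 3.99%, 3.92%, 3.9%, 1.91% and 7.88% of all bright probe sets were lower at that p. The shares of all probe sets that passed the adjusted test under the alternatives are not given here. Members with adjusted p under 0.05 numbered 1 after a second quantile normalization (ATPsynD, 0.0460), 1 with array weights (ATPsynD, 0.0226) and 4 with centring (ATPsynD, ATPsynCF6, ATPsynbetaL and COX6AL2). Centring gives probe sets at the floor a difference of -0.03 with almost no spread, so that its calls of dim genes arise from its construction. The small p-values of these floor probe sets also lower the adjusted p of ATPsynD and ATPsynCF6 under centring. Members below 0 numbered 23 of 31 and 15 of 31 without diapause 3 and non-diapause 3. After a second quantile normalization 58.1% of bright probe sets were below 0, and 19 of 25 bright members. The same replicate numbers did not pair the arrays (r of deviations -0.62 to 0.06), and with the replicate block ATPsynD had an adjusted p of 1 in limma. Leaving out assembly factors changed nothing, since the rule found none.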

Other observations

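Probe sets that carry symbols of these families together with other genes were not assigned to either. The probe set of COX6B and CG18809 stood at 13.93 ± 0.05 on the diapause arrays against 13.97 ± 0.03 on the non-diapause arrays, a difference of -0.04. For the probe set of ATPsynG and beat-Vb the values were 13.66 ± 0.04 against 13.65 ± 0.09 (0.01), and for that of blw and AQP 9.62 ± 0.17 against 9.53 ± 0.16 (0.09). The probe set of COX6AL2 and Ir75d was near the floor.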
